A study of Mus musculus with 6 samples.

Results

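The genes described here are 4 adult globin genes (Hba-a1, Hba-a2, Hbb-bs and Hbb-bt) and 2 other genes of red blood cells (Alas2 and Slc4a1), taken by gene name from a table of 54532 mouse genes. RNA had been sequenced from muscle in 3 control libraries and 3 libraries of Igf2 conditional knockout (Igf2 cKO) mice, called controls 1 to 3 and cKO 1 to 3 here by their replicate numbers. All animals were on a C57BL/6 background and homozygous for a floxed Igf2 allele (Igf2f/f), whose exon 2 is flanked by loxP sites. The Igf2 cKO mice also carried Mck-Cre, a Cre recombinase driven by the muscle creatine kinase promoter, which is active in striated muscle, and the controls were littermates without Cre. The labels give neither the muscle nor the age or sex of the mice, and they do not state whether blood was flushed from the tissue. They also do not say whether each library came from a separate animal, so p-values measure the spread between these libraries, which may be technical.

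Adult hemoglobin is made of alpha and beta chains, each of which holds a heme group that binds oxygen. Globin messages are made in the erythroid precursors of the bone marrow and persist in reticulocytes, the young red cells of the circulation. Muscle fibres store oxygen with another heme protein, myoglobin, so globin RNA in a muscle sample is commonly read as a trace of the blood it holds. Alas2 encodes the erythroid form of the first enzyme of heme synthesis, and Slc4a1 encodes band 3, the anion exchanger of the red cell membrane.

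The adult globin genes come as near-identical copies, and their sequences show how little separates them. In GENCODE M21 (GRCm38) the coding sequences of Hba-a1 and Hba-a2 were each 429 bases long and differed by 1 substitution, C381T. Those of Hbb-bs and Hbb-bt were each 444 bases long and also differed by 1, C417T. Positions count from 1 at the A of the start codon, with the base of Hba-a1 or Hbb-bs first, and both substitutions fall on the third base of a codon. The stretches printed here hold these bases, in capitals, and lie near the 3′ end of each coding sequence, within 1 exon. The alpha copies are on the plus strand at chr11:32284313-32284372 and chr11:32297130-32297189, and the beta copies on the minus strand at chr7:103826665-103826724 and chr7:103812656-103812715.
Hba-a1: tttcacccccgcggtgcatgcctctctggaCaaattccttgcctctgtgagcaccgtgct
Hba-a2: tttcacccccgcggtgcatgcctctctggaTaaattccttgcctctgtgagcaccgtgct
Hbb-bs: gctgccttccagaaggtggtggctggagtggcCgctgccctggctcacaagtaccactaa
Hbb-bt: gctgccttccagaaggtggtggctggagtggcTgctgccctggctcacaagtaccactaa
The longest stretch without a difference was 380 coding bases in the alpha pair and 416 in the beta pair. A read of 100 bases would be found in no other globin gene for 43.5% of the positions along the main Hba-a1 transcript, 25.5% for Hba-a2, 37.4% for Hbb-bs and 45.2% for Hbb-bt. The sources used here give neither the read length nor the handling of reads with several matches, so the division of reads between the copies of a pair is uncertain.

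The promoters of the globin genes are known for binding sites of the erythroid factors GATA1, which recognises GATA sequences, and KLF1, which recognises CACCC boxes, beside CCAAT and TATA boxes. In the 250 bases before the RefSeq start (GRCm38.p6) the windows of all 4 globin genes held a GATAA motif, a CACCC box, a CCAAT box and a TATAA box on either strand, as did 0.968% of 32851 mouse promoter windows of that length. Taken singly, GATAA was found in 22.6% of these windows, CACCC in 52.0% of them, CCAAT in 33.8% of them and TATAA in 22.8% of them. No matches overlapped in the globin windows. The alpha genes Hba-a1 and Hba-a2 were identical over the 297 bases compared, at an offset of 3 bases. The compared bases cover the promoter window and run on past the RefSeq start. The last 95 bases of an alpha and a beta promoter, at chr11:32296397-32296491 (plus strand) and chr7:103827929-103828023 (minus strand), show the boxes in capitals. Within these 95 bases the CCAAT box comes before the CACCC box in the alpha promoter and after it in the beta promoter. The TATAA box lies nearest the start in both. A further CACCC match of Hba-a2 lies outside the printed bases, 166 to 170 bases before the start.
Hba-a2: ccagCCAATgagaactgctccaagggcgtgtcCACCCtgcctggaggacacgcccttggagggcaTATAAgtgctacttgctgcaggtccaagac
Hbb-bs: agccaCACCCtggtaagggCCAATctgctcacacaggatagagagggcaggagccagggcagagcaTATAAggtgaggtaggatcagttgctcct
The GATAA matches lie further upstream, 181 to 185 bases before the start in Hba-a2 and 205 to 209 in Hbb-bs. The Alas2 window held a GATAA motif, several copies of the CACCC box and a pair of overlapping TATAA matches on opposite strands, with no match to CCAAT. A match is a description of the letters and not a measured binding site.

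Library totals lay between 16184371 and 17905203 counts. Skeletal muscle genes were abundant in every library, with Acta1, skeletal muscle actin, at 32997 to 40656 CPM (counts scaled to library size, with TMM factors). Igf2 itself, the targeted gene, had 60, 43 and 39 counts in controls 1 to 3, against 33, 37 and 42 in cKO 1 to 3, with a log2 fold change of -0.31 (adjusted p = 0.751 by edgeR). The gene-level count does not isolate the floxed exon, and is no check of the genotype.

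Summed globin RNA was lower in each cKO library than in each control library, but no single gene passed the test across all genes. Summed over the 4 genes, globin RNA averaged 497 ± 90.5 CPM in controls against 323.5 ± 23.0 CPM in cKO muscle (SD, n = 3 each), 0.651 times the control mean. In controls 1 to 3 the sums were 601.5, 451.7 and 438.5 CPM, and in cKO 1 to 3 they were 315.1, 349.5 and 305.8 CPM. The groups did not overlap, and control 1 stood above the other 2 controls. Taken gene by gene, 15.5% of all genes tested had groups that did not overlap, in either direction. Globin counts made up between 0.0307% (exact 95% interval 0.0298 to 0.0315) and 0.0621% (0.0610 to 0.0633) of a library, intervals that cover counting error only. Fewer red cells and less globin RNA per red cell cannot be told apart in RNA from whole tissue.

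By edgeR's quasi-likelihood test, with Benjamini-Hochberg adjustment over the 14867 genes tested, 0 of the 6 genes were called at an adjusted p under 0.05, where 0.249% of all genes tested were called in either direction and 0.0673% lower. Slc4a1 had too few counts to be tested. Each of the other 5 had at least 114 counts in every library, so the filter on low counts did not select them. At an unadjusted p under 0.05, 5 of the 5 were lower, against 4.82% of all genes tested. All 5 had a log2 fold change below 0, as did 49.2% of all genes tested. All 5 also had every cKO library below every control library, against 7.67% of all genes tested. Their median log2 fold change was -0.65, beside 0.0038 over all genes tested. DESeq2 called 3 of them (Hba-a1, Hbb-bs and Hbb-bt), with 0.596% of genes called lower, and limma-voom called 0. Without a filter on low counts edgeR called 4 (those 3 and Alas2), with 0.483% of genes called lower. The genes were chosen with earlier results of these data known, so these counts describe them and are no independent evidence of their direction. Nor are the 5 genes separate observations, since the copies of a pair can share reads and most of the 5 varied together across the libraries.

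**Figure D1:**
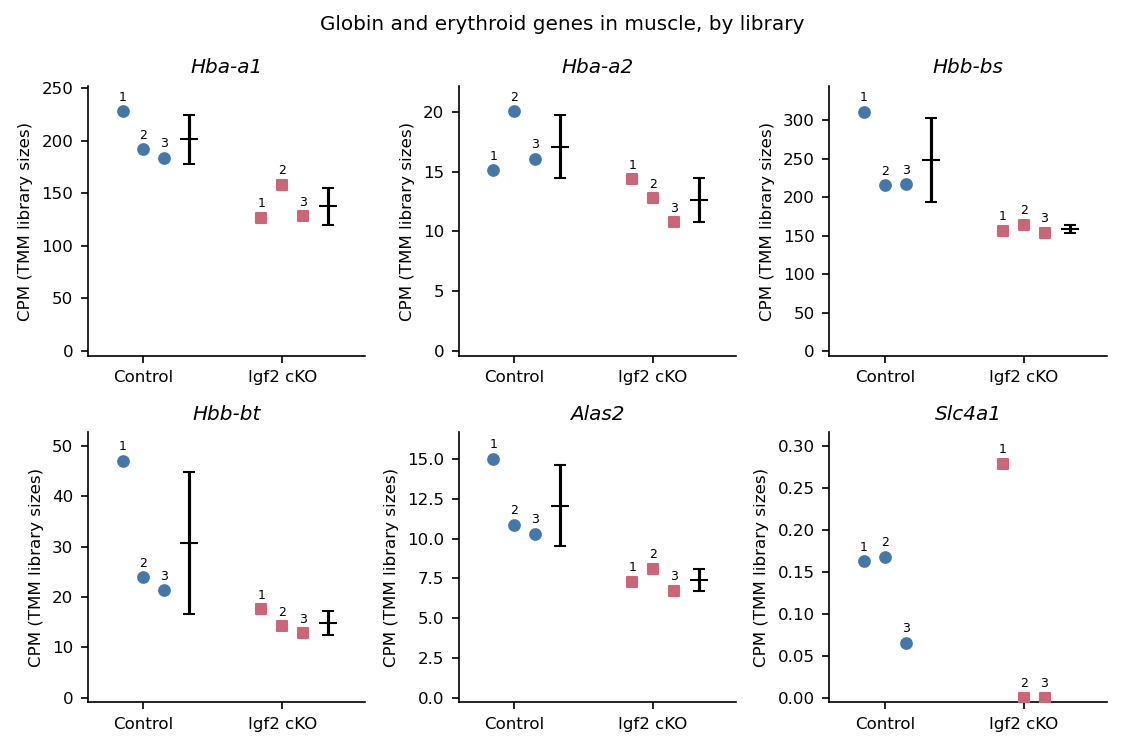
Level of each gene by library, in CPM with TMM library sizes. Circles are control and squares cKO libraries with their replicate numbers, and bars give mean ± SD (n = 3, not drawn for Slc4a1). For the globins and Alas2 all 3 cKO libraries sit below all 3 controls, and control 1 is the highest library for Hba-a1, Hbb-bs, Hbb-bt and Alas2.

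Of the alpha chain genes, Hba-a1 (ENSMUSG00000069919, chromosome 11, 32283511 to 32284465, plus strand, GRCm38) carried most of the counts. It stood at 227.9, 192.0 and 183.9 CPM in controls 1 to 3 and at 126.8, 158.1 and 128.1 CPM in cKO 1 to 3. The highest cKO library, replicate 2, still lay below the lowest control. The means were 201 ± 23.4 and 138 ± 17.7 CPM (SD, n = 3 each). On the log2 scale the difference was -0.55 ± 0.13 (SE), its 95% interval ran from -0.85 to -0.25, and the adjusted p of 0.201 by edgeR missed the threshold.

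Hba-a2 (ENSMUSG00000069917, chromosome 11, 32296489 to 32297298, plus strand), the second alpha copy, was at 15.1, 20.1 and 16.1 CPM in controls 1 to 3. In cKO 1 to 3 it was at 14.4, 12.8 and 10.8 CPM. Here control 1 was the lowest of its group, unlike in the other globin genes, and cKO 1 lay just below it. The log2 fold change of -0.43 ± 0.16 (SE, 95% interval -0.79 to -0.08) was the nearest to 0 of the 5 tested genes, with an adjusted p of 0.397 by edgeR. When the counts of both alpha copies were summed to 1 gene before the fit, the log2 fold change was -0.54 ± 0.13 (SE).

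Hbb-bs (ENSMUSG00000052305, chromosome 7, 103826534 to 103828096, minus strand) was the beta copy with most of the counts. It stood at 311.4, 215.7 and 217.2 CPM in controls 1 to 3. In cKO 1 to 3 it was at 156.4, 164.4 and 154.2 CPM. The cKO libraries lay close together, while control 1 was far above the other 2 controls. The cKO level was 0.638 times that of controls, a log2 fold change of -0.65 ± 0.15 (SE). Its 95% interval ran from -1.0 to -0.30 and its adjusted p by edgeR was 0.194.

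Hbb-bt (ENSMUSG00000073940, chromosome 7, 103812524 to 103813996, minus strand), the other adult beta copy, had the widest spread of the 4 globins relative to its mean. It was at 47.0, 23.9 and 21.4 CPM in controls 1 to 3 and at 17.5, 14.2 and 12.8 CPM in cKO 1 to 3. The groups did not overlap, and the largest gap was between control 1 and the other controls. The means were 30.8 ± 14.1 and 14.8 ± 2.43 CPM (SD, n = 3 each). The log2 fold change was -1.06 ± 0.29 (SE). Its 95% interval ran from -1.71 to -0.40 and edgeR gave an adjusted p of 0.263. Without control 1 it became -0.61 ± 0.16 (SE, adjusted p = 0.322 by edgeR). In this fit of all 6 libraries Hbb-bt was the 1 gene of the 6 that passed the cut-off named in the study's design, an absolute log2 fold change above 1 together with an unadjusted p below 0.05, which 0.794% of all genes tested met in the lower direction. With both beta copies summed to 1 gene, the log2 fold change was -0.69 ± 0.17 (SE).

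Alas2 (ENSMUSG00000025270, chromosome X, 150547375 to 150570638, plus strand), which lies outside the globin clusters, followed the globins. Its values were 15.03, 10.9 and 10.3 CPM in controls 1 to 3 and 7.30, 8.10 and 6.73 CPM in cKO 1 to 3. Control 1 was again the highest library and cKO 3 the lowest. The fitted log2 difference was -0.71 ± 0.18 (SE). Its 95% interval ran from -1.12 to -0.31 and the adjusted p by edgeR was 0.218.

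Slc4a1 (ENSMUSG00000006574, chromosome 11, 102348824 to 102366203, minus strand) was close to the limit of detection. It had 3, 3 and 1 counts in controls 1 to 3 and 5, 0 and 0 in cKO 1 to 3. The counts of 0 allow up to 0.185 CPM in cKO 2 and 0.178 CPM in cKO 3, relative to the unscaled library total. A difference between the groups was not detectable at this depth, and 1 cKO library held the highest count of all 6.

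**Figure D2:**
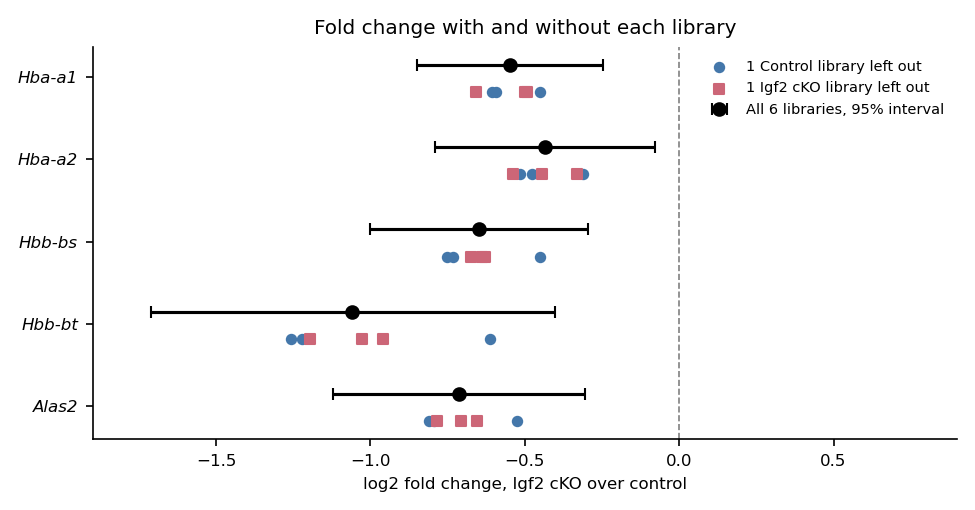
Log2 fold change (Igf2 cKO over control) of the 5 tested genes. Black points give the fit to all 6 libraries with its 95% interval, and coloured points the fit with 1 library left out. Every point lies below 0, and leaving out control 1 brings Hbb-bt to -0.61, Hbb-bs to -0.45 and Alas2 to -0.53.

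Per length of gene, Hbb-bs was the most abundant of the 6 and ranked 116th of all genes by mean FPKM (fragments scaled to gene length and library size). It averaged 321 ± 70.8 FPKM in controls and 205 ± 6.73 FPKM in cKO muscle (SD, n = 3 each). Hba-a1, ranked 151st, averaged 246.5 ± 28.6 and 169 ± 21.7 FPKM. Hbb-bs exceeded Hba-a1 in each of the 6 libraries, and within each group their ranges did not overlap. In controls the margin was very narrow, with Hbb-bs at 279.2 FPKM in control 2 and Hba-a1 at 279.0 FPKM in control 1.

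The second copies were far lower as counted and close to each other, with the division of reads between copies uncertain. Hbb-bt lay at 30.2 to 66.5 FPKM in controls and 18.2 to 24.7 FPKM in the cKO libraries, and Hba-a2 at 22.6 to 29.9 and 16.1 to 21.4 FPKM. Their ranges overlapped in cKO muscle, so the order of these neighbours is not beyond the spread there. Alas2 followed at 4.27 to 6.21 and 2.81 to 3.35 FPKM, and Slc4a1 reached at most 0.0565 FPKM in a library. Myoglobin (Mb), the oxygen store of the fibres, was at 596 to 2156 CPM, with a fitted log2 difference of 0.29 (adjusted p = 0.877 by edgeR). Its values were known when it was picked for mention.

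The proportion of Alas2 to globin RNA differed less between the groups than the globin level. Alas2 gave 25.0, 24.1 and 23.5 counts per 1000 globin counts in controls 1 to 3 and 23.2, 23.2 and 22.0 in cKO 1 to 3. The groups did not overlap here either, by a narrow margin. In CPM, 15.5% of single genes tested had groups apart in either direction. The ratio of the group means was 0.942, against 0.651 for the summed globin level. The largest control value was 1.06 times the smallest for this ratio, where the summed globin level spanned 1.37 times.

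The ratio of beta to alpha globin, in summed FPKM, was 1.56, 1.18 and 1.25 in controls 1 to 3 and 1.286, 1.095 and 1.259 in cKO 1 to 3. The groups overlapped, and control 1 had the highest ratio. Hba-a1 made up 87.9% to 92.5% of alpha-globin FPKM over the 6 libraries, with overlapping groups. Hbb-bs made up 85.8% to 91.7% of beta-globin FPKM, lowest in control 1, and here too the groups overlapped.

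**Figure D3:**
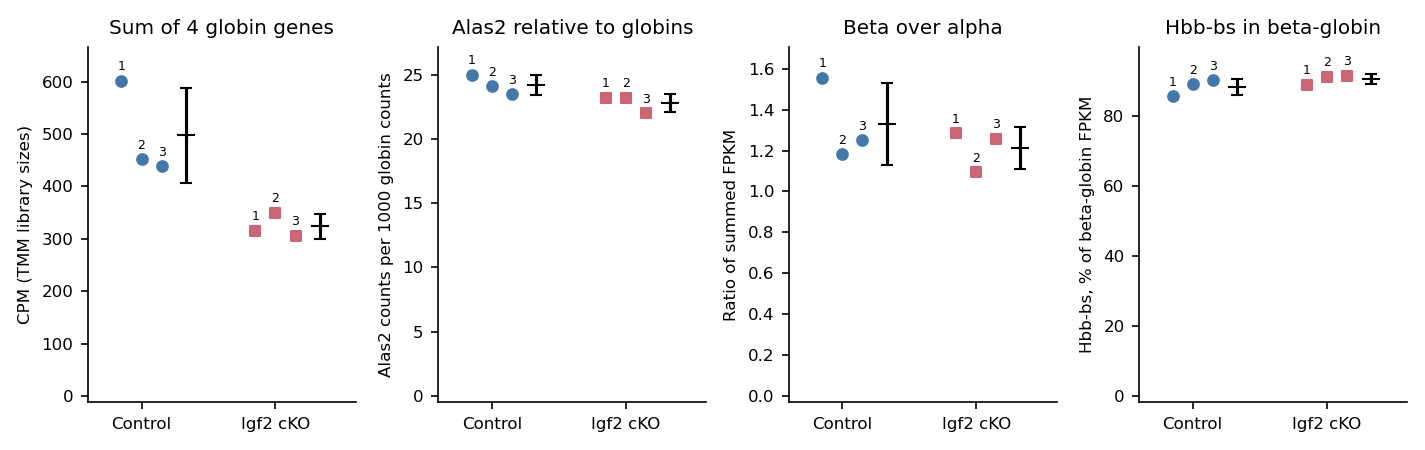
From left, the summed CPM of the 4 globin genes, Alas2 counts per 1000 globin counts, the ratio of beta to alpha globin in FPKM and the share of Hbb-bs in beta-globin FPKM, by library (replicate numbers beside the points, bars mean ± SD, n = 3). The groups are apart in the summed level (at most 349.5 against at least 438.5 CPM) and in the Alas2 ratio (at most 23.2 against at least 23.5), and overlap in both right-hand panels.

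Across the 6 libraries the beta genes and Alas2 varied together, while Hba-a2 stood aside. The correlation of log2 CPM, given as a description over 6 libraries that include the genotype difference, was 0.989 between Hbb-bs and Alas2, 0.964 between Hbb-bs and Hbb-bt and 0.946 between Hba-a1 and Hbb-bs. After removal of the group means it was 0.953, 0.915 and 0.764. Between Hba-a1 and Hba-a2 it was 0.637, and -0.206 after removal of the group means. Control 1 was the highest library in Hba-a1, Hbb-bs, Hbb-bt and Alas2, and the correlations were not computed without it. Among cKO 1 to 3 Hbb-bt was highest in cKO 1 (17.5, 14.2 and 12.8 CPM). Hbb-bs was highest in cKO 2 (156.4, 164.4 and 154.2 CPM).

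Ranked by correlation with the mean log2 CPM of the 4 globins, Alas2 came 7th of the 13771 other genes with a mean of at least 1 CPM (r = 0.989 over 6 libraries). The 8 most alike genes other than Alas2 had r between 0.986 and 0.995, and between 0.931 and 0.977 after removal of the group means. Their adjusted p by edgeR ran from 0.162 to 0.466, so none was called. They were Wdr6, D16Ertd472e, Rpsa (a protein of the small ribosomal subunit), Gm10132, Lepr (the leptin receptor), Smc4 (a condensin subunit), Fap (fibroblast activation protein) and Ccr2 (a chemokine receptor of monocytes). In each of the 8, control 1 was the highest library and cKO 3 the lowest, as in the summed globin level. The genes were picked by their correlation with the globins in these libraries, so the shared order follows from the choice.

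Other genes of red cells and their makers were read from 12 lists of red cell, blood, vessel and fibre genes. Of their 109 tested genes, 0 were called by edgeR or limma-voom and 1 by DESeq2 (Ccr2), while edgeR without a filter on low counts called 2 (Ccr2 and Cldn5). In edgeR 11 had an unadjusted p under 0.05, all of them lower in cKO muscle, where 9.93% of all genes tested passed in either direction and 4.82% lower. Among the 11 were Jchain, Trac and Ly6c2, which passed the filter on low counts mainly through the controls. Of the 10 other globin genes, which include the embryonic Hbb-y, Hbb-bh1 and Hba-x, 7 had no count in any library and the rest at most 6 counts.

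Heme synthesis genes, which every cell with mitochondria uses, lay around 0. Of 15 tested, none passed in edgeR (0, and 0 at an unadjusted p under 0.05), in DESeq2 (0) or in limma-voom (0), and the median log2 fold change was 0.0070. Alas1, the form of the enzyme outside erythroid cells, was at -0.08 (adjusted p = 0.927 by edgeR), beside -0.71 for Alas2. Urod, a later enzyme of the pathway, was at -0.19 (adjusted p = 0.575) and Slc25a28, a mitochondrial iron carrier, at -0.26 (adjusted p = 0.558). Fech, ferrochelatase, which inserts the iron, was at 0.0070 (adjusted p = 0.988). Alas1 and Fech were named after their values were seen.

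Of 19 listed genes of the red cell membrane, 9 were tested, with a median of 0.01 and 0 called by edgeR, DESeq2 or limma-voom (0 at an unadjusted p under 0.05). Among the tested were Ank1 (ankyrin, 0.16, adjusted p = 0.84 by edgeR), which muscle also expresses, and Gypc (glycophorin C, 0.13, adjusted p = 0.825). Several defining erythroid markers of this list were near 0 counts. Rhag had at most 2 counts in a library, Kel at most 1 and Icam4 none, named after their values were seen. Genes of red cell cytosol and reticulocyte maturation had a median of -0.15 over 15 tested, with 1 at an unadjusted p under 0.05 and 0 called by edgeR, DESeq2 or limma-voom. That was Bpgm, which makes the oxygen affinity regulator of red cells, at -0.30 (adjusted p = 0.475). Car2, carbonic anhydrase, was at -0.40 (adjusted p = 0.508).

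Erythroid transcription factors and receptors had a median of -0.19 over 6 tested genes, with 0 called in any of edgeR, DESeq2 and limma-voom, and 1 at an unadjusted p under 0.05. This was Ldb1, a cofactor of GATA1 and TAL1 complexes that many tissues express, at -0.29 (adjusted p = 0.284 by edgeR). Tal1, also an endothelial gene, was at -0.40 (adjusted p = 0.532). The defining factors Gata1 and Klf1 had at most 12 and 8 counts in a library and were not tested, named after their values were seen. Genes that clear hemoglobin, heme and iron had a median of -0.05 over 11 tested, with 0 called in any of edgeR, DESeq2 and limma-voom, and 1 at an unadjusted p under 0.05. It was Slc40a1, the iron exporter ferroportin, at -0.50 (adjusted p = 0.412), while Hmox2, a heme oxygenase, was at -0.14 (adjusted p = 0.698).

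Markers of other blood cells were compared in the same libraries, since blood carries them too. Lymphocyte markers were at very low counts, and 4 of the 13 listed genes could be tested, with a median log2 fold change of -1.14. Jchain and Trac passed the filter on low counts through the controls. They were at 0.649 to 0.914 and 0.653 to 0.757 CPM there, against 0.223 to 0.413 and 0 to 0.433 CPM in cKO muscle. The median and the unadjusted p of this list are therefore partly set by the filter. Trac was named after its values were seen. Their summed level was 5.57 to 9.89 CPM in controls against 3.13 to 4.29 CPM in cKO muscle, and 3 of 4 tested genes had an unadjusted p under 0.05, among them Jchain (-1.22, adjusted p = 0.384 by edgeR) and Igkc (-1.07, adjusted p = 0.477). Untested members of this list did not all lie lower: Cd3g, named after its values were seen, was at 0.0559 to 0.196 CPM in controls against 0.124 to 0.334 CPM in cKO muscle. For monocytes and macrophages all 12 tested genes lay below 0 (median -0.22), led by Ccr2 (-0.98, adjusted p = 0.162) and Ly6c2 (-1.44, adjusted p = 0.427), both markers of blood monocytes and the 2 with an unadjusted p under 0.05. Ly6c2 also passed the filter mainly through the controls, at 0.914 to 1.28 CPM there against 0.118 to 0.742 CPM in cKO muscle. DESeq2 called Ccr2, and edgeR and limma-voom called 0 genes of both lists. The summed level of the monocyte and macrophage markers overlapped between groups, at 347 to 681 CPM in controls against 393 to 551 CPM in cKO muscle.

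Platelet and neutrophil markers overlapped. Platelet markers summed to 27.1 to 44.5 CPM in controls against 27.0 to 37.5 CPM in cKO muscle, with a median of -0.23 over 5 tested genes, Alox12 at -0.34 (adjusted p = 0.728 by edgeR) and Gp1ba at -0.23 (adjusted p = 0.86). Neutrophil markers summed to 10.7 to 22.2 and 12.2 to 15.5 CPM, with a median of -0.37 over 6 tested genes, Lcn2 at 0.90 (adjusted p = 0.507) and Csf3r at -0.59 (adjusted p = 0.625). Of the platelet markers Gp1bb, and of the neutrophil markers Mpo, had no count in any library. Over these 2 lists edgeR, DESeq2 and limma-voom each called 0 genes, and edgeR put 0 at an unadjusted p under 0.05.

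Endothelial markers, which track vessels, summed to 2095 to 2406 CPM in controls against 1639 to 2345 CPM in cKO muscle. They had a median of -0.10 over 13 tested genes, 0 called in any of edgeR, DESeq2 and limma-voom, and 3 lower at an unadjusted p under 0.05. Cldn5, a tight junction gene called by edgeR only without the filter on low counts, was at -0.61 (adjusted p = 0.281 by edgeR with it) and Egfl7 at -0.26 (adjusted p = 0.467). Muscle fibre genes summed to 141922 to 169435 CPM in controls against 115104 to 140585 CPM in cKO muscle. The groups were apart here too, but by a narrow margin, and 15.5% of single genes tested had groups apart in either direction. Their median was -0.16 over 14 tested genes, with 0 at an unadjusted p under 0.05 and 0 called in edgeR, DESeq2 and limma-voom alike. Myh4, the fastest myosin heavy chain, was at -0.54 (adjusted p = 0.622) and Ttn, titin, at -0.46 (adjusted p = 0.633). The part of blood, vessel or fibre content in the globin levels was not tested.

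**Figure D4:**
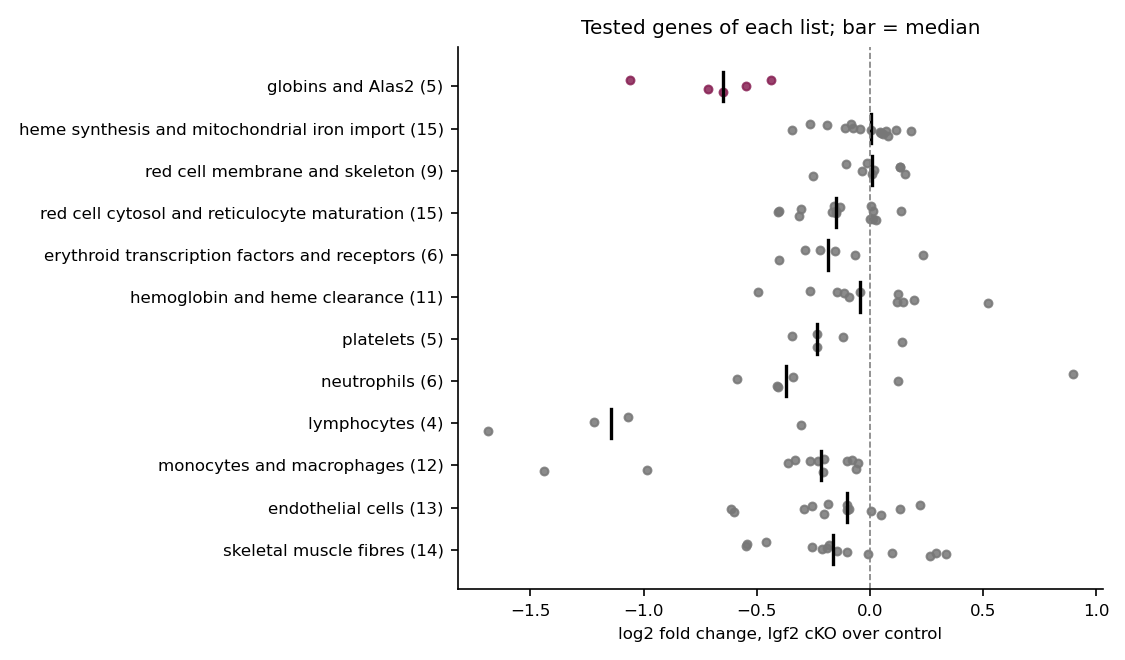
Log2 fold change (Igf2 cKO over control) of the tested genes of each list, with the number tested in brackets and a bar at the median. The globins and Alas2 lie between -1.06 and -0.43, and the list medians run from -1.14 for lymphocytes (4 genes tested) and -0.37 for neutrophils to 0.0070 for heme synthesis and 0.01 for the red cell membrane. The lymphocyte median includes genes that passed the filter on low counts through the controls.

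The authors' deposited table compares each cKO library with the control of the same number, and its 3 comparisons of single libraries pointed the same way for the 5 abundant genes. For Hbb-bt the authors' deposited table gives log2 fold changes of -1.42, -0.76 and -0.74 for replicates 1 to 3, with an adjusted p of 0.133 in the first and 1.0 in the others. For Hba-a1 the authors' deposited table gives -0.84, -0.28 and -0.52, and for Hba-a2 it gives -0.07, -0.65 and -0.58. Replicate 1 gave the largest difference of the 3 for Hba-a1 and Hbb-bt and the smallest for Hba-a2. For Hbb-bs the authors' deposited table gives -0.99, -0.39 and -0.49, and for Alas2 -1.04, -0.43 and -0.61. No adjusted p of these genes in the authors' deposited table was below 0.133. The unadjusted p in the authors' deposited table for replicate 1 was 0.0421 for Hba-a1, 0.0171 for Hbb-bs, 0.000899 for Hbb-bt and 0.0189 for Alas2, so Hbb-bt and Alas2 passed the study's cut-off there. In replicates 2 and 3 of the authors' deposited table none of the 6 genes passed it. The share of all genes that passed it, or that pointed lower, in these comparisons was not counted. The passes and the shared direction are therefore a description only. These values rest on the same 6 libraries. Each comparison sets a single library against a single library, so its p-values rest on no replicates and do not measure the spread between libraries. Replicate 1 also holds control 1, the library with the most globin RNA.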

How the data were processed

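The members and gene lists were chosen with earlier results of these data known. Per the labels, RNA was isolated with Trizol and sequenced and analysed by a commercial service; the sources used here name no aligner, counting tool, strand setting or build. The deposited table holds, per the file headers, a raw count and an FPKM per gene and library, and the authors' log2 fold change with its p-value for 3 comparisons of single libraries. Another 6 per-sample columns have names that match no sample title and were not used. Of 54409 gene identifiers found in GENCODE M21, 98.3% had the same start and end, so coordinates are GRCm38.

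Counts were tested with edgeR 4.0.16 in R 4.3.3 (quasi-likelihood F test, TMM, filterByExpr, genotype as the single term), with Benjamini-Hochberg adjustment over 14867 genes and standard errors derived from the F statistic. DESeq2 1.42.0, limma-voom (limma 3.58.1), other size factors and filters, a replicate block, summed globin copies and leaving out each library were alternatives. Log2 CPM used a prior count of 2. On simulated counts for the 14867 genes the fit recovered 13.4% of genes changed 1.5-fold, 59.7% of those changed 2-fold and 90.9% of those changed 4-fold. Named genes were the members, up to 4 called or else the 2 with the smallest p of each list, and the 8 genes most correlated with the globins; exceptions are said to be so. Of the 6 members, 5 had a RefSeq promoter entry.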

Additional observations from a re-analysis of the deposited data

How the results depend on the processing

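All 5 tested genes kept a log2 fold change below 0 in every alternative run. Across the alternatives Hba-a1 lay between -0.66 and -0.45, Hba-a2 between -0.54 and -0.31, Hbb-bs between -0.75 and -0.45, Hbb-bt between -1.26 and -0.61 and Alas2 between -0.81 and -0.53, and the ends of these ranges come from fits with 1 library left out, except the lowest value of Hba-a2, which came with the alpha copies summed. With no filter on low counts, 4 of the 6 genes were called (0.483% of all genes were called lower), with log2 fold changes of -0.55 for Hba-a1, -0.65 for Hbb-bs, -1.06 for Hbb-bt and -0.72 for Alas2 and adjusted p of 0.0375, 0.0151, 0.0015 and 0.0377. With DESeq2, 3 were called, with -0.55 for Hba-a1, -0.65 for Hbb-bs and -1.05 for Hbb-bt and adjusted p of 0.0159, 0.00892 and 0.0188. The rule the series states, applied to the edgeR fit, took 1, Hbb-bt at -1.06. With any 1 library left out 0 of the 6 were called. The cause of these differences was not tested. Over all genes edgeR called 37, against 282 with no filter, 203 with DESeq2, 62 at an adjusted p under 0.1, 235 by the series' rule and between 8 and 68 with 1 library left out. Slc4a1 was too low for the fit. With no filter its log2 fold change was -0.45 ± 1.29 (SE).

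Same-numbered libraries of both groups deviated together weakly or not at all (correlations of 0.16, 0.058 and -0.043). Control replicates 1 and 2 correlated best with the Igf2 cKO replicate of their own number. Control replicate 3 correlated best with Igf2 cKO replicate 2 (0.12). These values do not settle whether the libraries were paired. The labels state no pairs, so the main fit did not take the numbers as pairs. For Hbb-bt the SE was 0.29 in the main fit and 0.16 with a replicate block. With the replicate block 35 genes and 0 of the 6 were called, with log2 fold changes of -0.55 for Hba-a1, -0.43 for Hba-a2, -0.63 for Hbb-bs, -0.99 for Hbb-bt (adjusted p = 0.0846) and -0.70 for Alas2. At this depth Slc4a1 and the erythroid-restricted markers cannot be compared between groups.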

Other observations

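Haptoglobin (Hp), which binds free hemoglobin and is also made by adipocytes, varied more between libraries than any of the 4 globins. It was at 54.9, 29.4 and 7.18 CPM in controls 1 to 3 and 40.6, 13.5 and 77.8 CPM in cKO 1 to 3, with overlapping groups and a log2 fold change of 0.52 (adjusted p = 0.872 by edgeR). The hemoglobin scavenger receptor of macrophages, Cd163, was at 23.3 to 58.3 CPM in controls and 40.2 to 60.4 CPM in Igf2 cKO muscle, again with overlap (0.12, adjusted p = 0.94 by edgeR). Hmox1, the inducible heme oxygenase, was at 22.2, 18.3 and 12.7 CPM in controls 1 to 3 and 12.9, 14.3 and 17.3 CPM in cKO 1 to 3. The groups overlapped (-0.26, adjusted p = 0.739 by edgeR). Its correlation with the mean log2 CPM of the 4 globins was 0.569, which ranked 2088th. These genes were named after their values were seen.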
